A study of Mus musculus with 10 samples.

Results

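The 10 genes described here encode chemokines, a cytokine, an adhesion molecule and regulators of the transcription factor NF-kB: Cxcl1, Ccl2, Ccl7, Il6, Icam1, Relb, Bcl3, Nfkbia, Tnfaip3 and Birc3. They were taken by gene symbol, and all 10 were present among the 12803 genes of the table. The choice was made with earlier results of these data known, so shares and ranks given for the 10 genes describe them and test nothing. They were followed in muscle stem cells, the resident stem cells of skeletal muscle, of young male C57BL/6 mice. Cells had been sorted from limb muscle as CD45-, CD31-, Sca1- and VCAM+ cells. A first group was taken at 0 h with no culture (fresh, n = 3). The others were cultured for 24 h in Ham's F-10 medium with 10% horse serum on plates coated with extracellular matrix. One of them received the solvent DMSO (vehicle, n = 3) and the other 40 µM Tubastatin A in DMSO (n = 4). Tubastatin A inhibits HDAC6, a deacetylase of tubulin. Each library came from 1 animal, and the animals' exact age is not given in the labels. The labels also give the fresh libraries the treatment vehicle, at 0 h, and do not say whether these cells met DMSO. Culture, time since sorting, medium, serum, plate coating and any difference in DMSO cannot be told apart in comparisons with them. Fresh levels are those of cells already taken from muscle and sorted.

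NF-kB is a family of dimeric transcription factors held in the cytoplasm by inhibitor proteins of the IkB family. Ligands of tumour necrosis factor, interleukin 1 and Toll-like receptors activate a kinase that marks the inhibitor for destruction, and the freed dimer enters the nucleus. Among its targets are chemokines, which draw leukocytes into tissue, and its own inhibitors, which end the response. In injured muscle, such ligands take part in the recruitment of neutrophils and monocytes.

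Values are deposited RPKM, reads scaled by gene length and by a library size, so that levels can be compared between genes. That size, recovered from the values, was 29.5M to 39.3M in fresh, below the reads assigned to the table's genes. In cultures it was 42.8M to 62.4M, above them. Scaling by these reads instead makes falls from fresh smaller, by 0.606 in vehicle and 0.687 with Tubastatin A on log2 RPKM. Differences are of log2(RPKM + 1), with the standard error (SE), 95% confidence interval and adjusted p of a limma fit of all 12803 genes in the 3 groups. A gene is called higher or lower at an adjusted p under 0.05. Depth, as reads assigned to the table's genes, ranged from 37.0M to 54.6M a library, and 1 read in a gene of 1 kb was worth 0.016 to 0.0339 RPKM. The 10 genes took 0.402% to 0.592% of these reads in fresh, 0.0656% to 0.0814% in vehicle and 0.0503% to 0.0585% in Tubastatin A libraries. In bulk RNA, fewer cells of a type and less RNA per cell cannot be told apart.

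Promoters of 7 of the 10 genes were matched by symbol in the RefSeq table for GRCm38.p6, as windows of 300 bases from 250 before to 50 after the transcript start. They are shown because kB sites are the sequences by which NF-kB is known to bind its targets. Ccl2, Ccl7 and Relb had no entry. Below are the 250 bases before the start, 5' to 3' on the gene's strand, for Cxcl1 and Il6, the genes furthest below fresh levels after culture, for Icam1, the gene that moved up with Tubastatin A, for Nfkbia and Tnfaip3, which encode NF-kB inhibitors, and for Birc3, where no kB match was found. Capitals mark matches on either strand to the 10-letter NF-kB consensus or to the overlapping 9-letter form GGNNNTTCC.
Cxcl1 (chr5:90890995-90891244, + strand): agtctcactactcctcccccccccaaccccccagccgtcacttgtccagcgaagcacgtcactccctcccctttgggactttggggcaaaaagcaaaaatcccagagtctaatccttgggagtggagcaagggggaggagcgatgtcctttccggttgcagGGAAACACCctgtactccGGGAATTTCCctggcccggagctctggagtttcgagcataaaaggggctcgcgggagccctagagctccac
Il6 (chr5:30012864-30013113, + strand): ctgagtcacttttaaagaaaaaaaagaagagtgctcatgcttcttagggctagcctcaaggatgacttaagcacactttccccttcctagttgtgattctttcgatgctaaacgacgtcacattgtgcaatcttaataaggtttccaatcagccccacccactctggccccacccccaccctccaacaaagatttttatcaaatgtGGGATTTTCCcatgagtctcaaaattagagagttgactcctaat
Icam1 (chr9:21015690-21015939, + strand): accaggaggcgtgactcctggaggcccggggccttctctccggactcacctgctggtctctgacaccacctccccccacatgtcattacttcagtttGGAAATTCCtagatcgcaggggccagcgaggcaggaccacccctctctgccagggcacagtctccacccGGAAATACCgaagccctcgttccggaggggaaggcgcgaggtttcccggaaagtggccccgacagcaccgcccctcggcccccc
Nfkbia (chr12:55492648-55492897, - strand): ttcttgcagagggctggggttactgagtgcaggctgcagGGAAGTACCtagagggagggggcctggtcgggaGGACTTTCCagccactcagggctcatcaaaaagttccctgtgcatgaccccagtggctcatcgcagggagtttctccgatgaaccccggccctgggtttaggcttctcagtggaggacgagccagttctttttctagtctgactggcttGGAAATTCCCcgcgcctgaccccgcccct
Tnfaip3 (chr10:19015411-19015660, - strand): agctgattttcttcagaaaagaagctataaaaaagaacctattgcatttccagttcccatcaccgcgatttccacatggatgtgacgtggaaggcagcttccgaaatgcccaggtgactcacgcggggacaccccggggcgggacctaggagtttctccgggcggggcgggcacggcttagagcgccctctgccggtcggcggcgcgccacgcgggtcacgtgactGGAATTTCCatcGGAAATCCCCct
Birc3 (chr9:7873171-7873420, - strand): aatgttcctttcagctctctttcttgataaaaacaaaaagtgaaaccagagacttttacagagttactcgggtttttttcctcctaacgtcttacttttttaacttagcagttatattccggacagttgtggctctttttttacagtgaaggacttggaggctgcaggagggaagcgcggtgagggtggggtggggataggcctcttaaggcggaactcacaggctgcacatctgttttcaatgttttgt

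In the windows of 300 bases, the 10-letter consensus was found in 5 of the 7 genes, Cxcl1, Il6, Bcl3, Nfkbia and Tnfaip3, and in 5.8% of the 32851 RefSeq promoters of the same length. The 9-letter form was found in 6 of the 7, all but Birc3, and in 18.5% of all promoters. In Cxcl1 the 10-letter match began 71 bases before the start, in Il6 44 bases, in Nfkbia 29 bases and in the first Tnfaip3 promoter 12 bases before it. Icam1 held no 10-letter match, and its 9-letter matches began 153 and 84 bases before the start. Tnfaip3 had a second RefSeq promoter, with only a 9-letter match. Il6 also held matches to AP-1 (TGANTCA) and C/EBP (TTGCNNAA), and Tnfaip3 to AP-1; these motifs were found in 7.81% and 10.8% of all promoters. The letters TATAAA were found in 3 of the 7 genes, Icam1, Nfkbia and Tnfaip3, and in 13.6% of all promoters. A match shows that the letters are present, not that a factor was bound in these cells.

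All 10 genes were lower in vehicle cultures than in fresh cells, and in each the libraries of both groups did not overlap. The comparison asks what 24 h in culture with the solvent does to the genes. Of all genes tested, 35.0% were called lower in this comparison, 32.0% higher and 67.0% in either direction, and in 67.6% the libraries of both groups did not overlap. The median difference was -3.05 over the 10 genes and -0.03 over all genes. Cxcl1 was 10th from the lowest difference of all 12803 genes, Icam1 80th, and the least changed of the 10, Relb, 904th.

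Among the chemokines, Cxcl1, a ligand that attracts neutrophils through the receptor CXCR2, stood at 929.6, 1498 and 792.2 RPKM in the 3 fresh libraries. In vehicle libraries it stood at 4.2, 5.56 and 5.75 RPKM. Every fresh library lay far above the vehicle libraries, and the mean was 208-fold lower after culture, a difference of -7.40 (SE 0.20, adjusted p = 1.2e-10). Ccl2 and Ccl7 encode ligands of CCR2, the receptor that brings monocytes into injured tissue. Ccl2 fell from 173.3, 302.7 and 150.0 RPKM to 29.2, 31.9 and 28.3 RPKM, 7.0-fold by the means (difference -2.70, SE 0.22, adjusted p = 5.0e-07). Ccl7 fell from 181.5, 362.4 and 149.7 RPKM to 32.4, 35.5 and 37.6 RPKM, 6.58-fold (difference -2.58, SE 0.27, adjusted p = 4.6e-06). In all 3 chemokines fresh replicate 2 was highest and fresh replicate 3 lowest. Both CCR2 ligands lay below Cxcl1 in fresh cells and above it in vehicle culture.

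Il6 encodes interleukin 6, a cytokine released by many cells after injury. It stood at 11.5, 17.3 and 14.0 RPKM in fresh libraries, from 1057 to 1239 reads each, and at 0.0172, 0.106 and 0.0460 RPKM in vehicle libraries, from 2, 11 and 5 reads. Summed over libraries, scaled for their size, Il6 was 256-fold lower in vehicle, with a 95% interval of 162 to 432 that covers counting error only. The mean level was 253-fold lower, and 452-fold lower without vehicle replicate 2, the library with 11 reads. The difference of log2(RPKM + 1) was -3.84 (SE 0.13, adjusted p = 4.5e-10) and understates so low a level. Icam1, which encodes the adhesion molecule that leukocytes grip through their integrins, stood at 51.0, 68.8 and 63.5 RPKM in fresh and at 1.03, 1.29 and 1.32 RPKM in vehicle libraries. The groups lay 50.3-fold apart by their means (difference -4.80, SE 0.14, adjusted p = 1.3e-10).

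Of the regulators among the 10 genes, Relb, the subunit of the alternative pathway, fell least. It stood at 81.4, 105.3 and 113.0 RPKM in fresh and at 23.0, 25.8 and 27.4 RPKM in vehicle libraries (3.93-fold, difference -1.92, SE 0.13, adjusted p = 1.3e-07). Bcl3, an IkB protein that acts in the nucleus with the subunits p50 and p52, fell from 298.4, 295.3 and 263.6 RPKM to 33.1, 37.3 and 42.8 RPKM (7.57-fold, difference -2.89, SE 0.13, adjusted p = 3.2e-09). Its fresh libraries were the closest to each other of all 10 genes, with a coefficient of variation of 6.75%. Nfkbia, which encodes IkB-alpha, the inhibitor that holds NF-kB in the cytoplasm, stood at 1075, 1552 and 899.9 RPKM in fresh and at 162.2, 186.0 and 234.4 RPKM in vehicle libraries. It had the highest mean level of the 10 in every group, and lay 6.05-fold lower after culture (difference -2.57, SE 0.21, adjusted p = 5.9e-07).

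Tnfaip3 encodes A20, a ubiquitin-editing enzyme that shuts the pathway off upstream of the kinase. It stood at 110.1, 42.1 and 41.5 RPKM in fresh and at 6.17, 5.94 and 4.28 RPKM in vehicle libraries, a difference of -3.20 (SE 0.30, adjusted p = 1.7e-06). Fresh replicate 1 lay far above the other two, and the ratio of the means, 11.8-fold, was 7.65-fold without it. Birc3 encodes cIAP2, a ubiquitin ligase that restrains cell death below tumour necrosis factor receptors. It fell from 138.3, 105.1 and 129.3 RPKM to 8.03, 7.21 and 9.07 RPKM (15.3-fold, difference -3.78, SE 0.13, adjusted p = 3.9e-10).

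**Figure D1:**
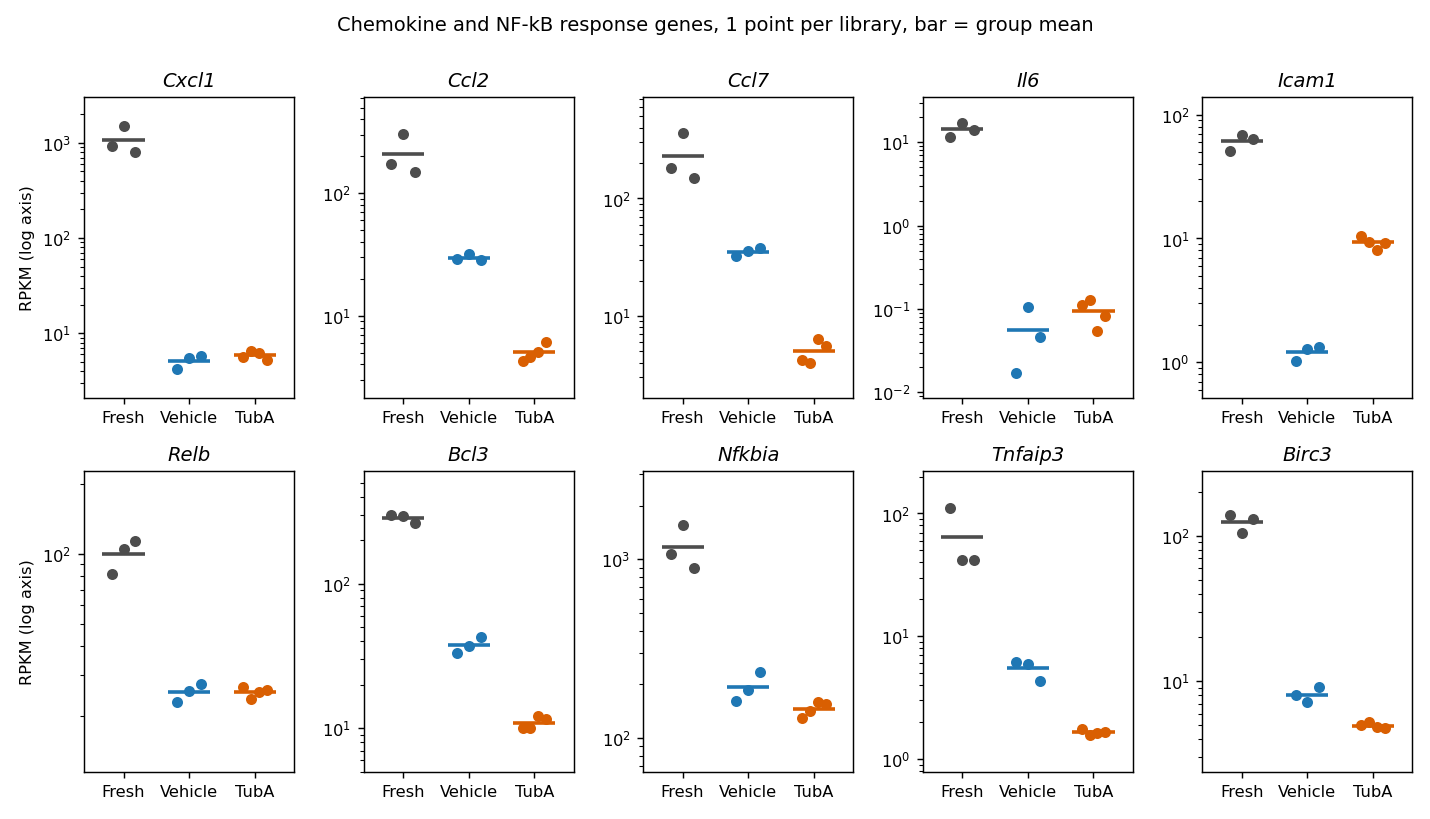
Levels of the 10 genes in each library, in RPKM on a log axis, with 1 point per library and a bar at the group mean, for fresh (n = 3), vehicle (n = 3) and Tubastatin A (TubA, n = 4) libraries. Fresh points lie above all others in each panel, and TubA points lie above the vehicle points in the Icam1 panel, at 8.09 to 10.5 against 1.03 to 1.32 RPKM.

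With Tubastatin A the genes split. Icam1 was higher than in vehicle, Ccl2, Ccl7, Bcl3, Tnfaip3 and Birc3 were lower, and Cxcl1, Il6, Relb and Nfkbia were not called. The comparison asks what the inhibitor changes during the same 24 h in culture. Of all genes, 29.6% were called higher, 29.7% lower and 59.3% in either direction, so 6 called genes of 10 is close to the share over the table. The libraries of both groups did not overlap in 7 of the 10 genes, against 68.6% of all genes. The median difference was -0.50 over the 10 genes and 0.02 over all.

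Icam1 stood at 10.5, 9.38, 8.09 and 9.27 RPKM in the 4 Tubastatin A libraries, from 1597 to 2845 reads, against 1.03 to 1.32 RPKM and 216 to 258 reads in vehicle. Each Tubastatin A library lay above each vehicle library, 7.66-fold by the means, a difference of 2.22 (SE 0.13, 95% interval 1.94 to 2.50, adjusted p = 5.8e-08). It ranked 123rd from the highest difference of all genes. It still lay 6.57-fold below the fresh mean.

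The CCR2 ligands fell further with the inhibitor. Ccl2 stood at 4.27, 4.57, 5.07 and 6.15 RPKM, below the 28.3 to 31.9 RPKM of vehicle (5.95-fold, difference -2.37, SE 0.20, adjusted p = 1.6e-06). Ccl7 stood at 4.22, 4.02, 6.42 and 5.54 RPKM against 32.4 to 37.6 RPKM (6.96-fold, difference -2.60, SE 0.25, adjusted p = 4.1e-06). The highest Tubastatin A library lay below the lowest vehicle library in both. Cxcl1 behaved otherwise: at 5.69, 6.51, 6.18 and 5.22 RPKM its libraries overlapped those of vehicle. The Cxcl1 difference was 0.17 (95% interval -0.25 to 0.58, adjusted p = 0.47), an interval that leaves out falls of the size seen in Ccl2 and Ccl7.

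Il6 stood at 0.112, 0.129, 0.0546 and 0.0831 RPKM with Tubastatin A, from 17, 18, 6 and 10 reads, and its libraries overlapped those of vehicle. The difference was 0.05 (95% interval -0.21 to 0.32, adjusted p = 0.74) on a scale where levels below 1 RPKM are compressed. By summed reads Tubastatin A stood 1.79-fold above vehicle, with a 95% interval of 1.03 to 3.25 that covers counting error only and not the spread between animals. The ratio of the means was 1.68-fold, and 3.0-fold without vehicle replicate 2. At this depth, no difference beyond the spread between libraries was detectable.

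Among the regulators, Bcl3 stood at 9.99, 10.0, 12.2 and 11.7 RPKM, all below the vehicle libraries at 33.1 to 42.8 RPKM (3.44-fold, difference -1.69, SE 0.12, adjusted p = 2.8e-07). Tnfaip3 stood at 1.75, 1.57, 1.62 and 1.66 RPKM against 4.28 to 6.17 RPKM, again with no overlap (3.32-fold, difference -1.28, SE 0.28, adjusted p = 0.002). Birc3 moved least of the called genes: 5.03, 5.22, 4.84 and 4.76 RPKM against 7.21 to 9.07 RPKM (1.63-fold, difference -0.61, SE 0.12, adjusted p = 8.4e-04), short of a 2-fold change. Tnfaip3 had the least firm of these calls: with a pseudocount of 5 RPKM its difference was -0.65 and its adjusted p 0.051.

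Relb and Nfkbia were not called. Relb stood at 26.7, 23.8, 25.4 and 25.98 RPKM with Tubastatin A, within the range of the vehicle libraries, with a difference of 0.01 (95% interval -0.26 to 0.28, adjusted p = 0.97). Nfkbia stood at 129.7, 141.5, 159.2 and 154.5 RPKM against 162.2, 186.0 and 234.4 RPKM. All 4 Tubastatin A libraries lay below all vehicle libraries, yet the difference of -0.39 (95% interval -0.83 to 0.04, adjusted p = 0.11) did not pass the threshold. It passed in the fit of only the groups compared (adjusted p = 0.024) and without fresh replicate 2 (adjusted p = 0.032).

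**Figure D2:**
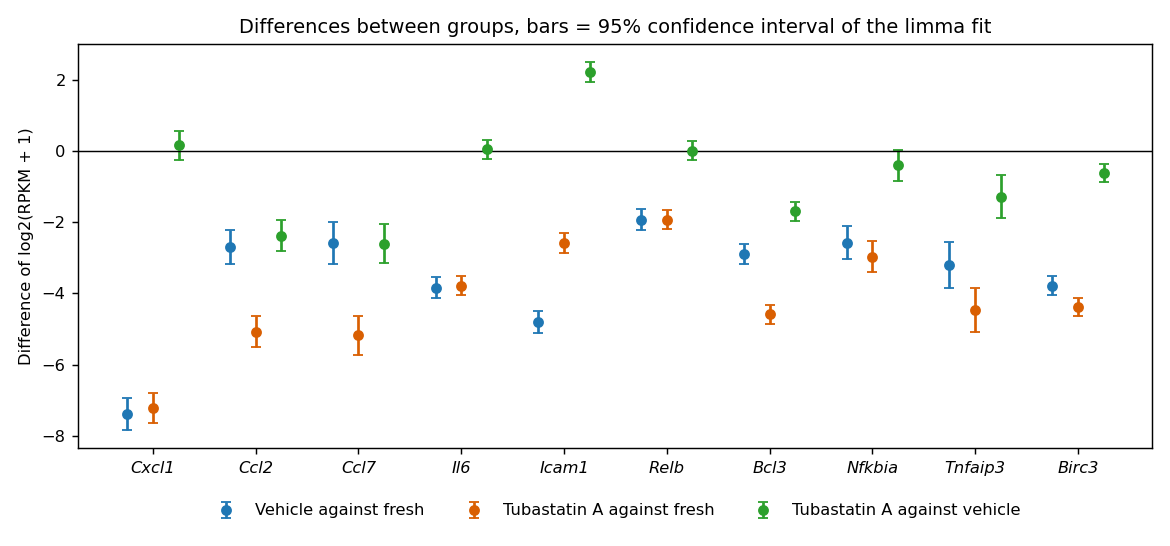
Differences of log2(RPKM + 1) for each of the 10 genes in 3 comparisons, with bars for the 95% confidence interval of the limma fit and a line at 0. All points of vehicle and of Tubastatin A against fresh lie below 0, while for Tubastatin A against vehicle Icam1 lies at 2.22, Ccl7 at -2.60, and the intervals of Cxcl1, Il6, Relb and Nfkbia cross 0.

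Against fresh cells, all 10 genes were lower with Tubastatin A too, with no overlap of libraries in any of them. Of all genes, 35.2% were called lower, 29.8% higher and 64.9% in either direction, and 61.3% had no overlap. The median difference was -4.43 over the 10 genes and -0.03 over all. The largest ratios of means were 182-fold for Cxcl1 and 151-fold for Il6, the latter from 6 to 18 reads a library. Ccl7 lay 45.8-fold and Ccl2 41.6-fold below fresh, Tnfaip3 39.2-fold, or 25.4-fold without fresh replicate 1, Bcl3 26.1-fold and Birc3 25.0-fold. Nfkbia, Icam1 and Relb lay 8.04-fold, 6.57-fold and 3.92-fold below. This comparison shares its fresh libraries with the first and its Tubastatin A libraries with the second.

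The order of the 10 levels differed by group. In fresh cells Nfkbia (1176 RPKM) and Cxcl1 (1073 RPKM) came first and overlapped. Bcl3, Ccl7 and Ccl2 followed at 285.8, 231.2 and 208.7 RPKM, each overlapping its neighbour in the order. Birc3, Relb, Tnfaip3 and Icam1 stood between 124.2 and 61.1 RPKM, again with overlap between neighbours, and Il6 was last at 14.3 RPKM. In vehicle, Nfkbia stood alone at 194.2 RPKM. Bcl3 (37.7 RPKM) overlapped Ccl7 (35.2 RPKM), which lay apart from Ccl2 (29.8 RPKM), and Ccl2 lay apart from Relb (25.4 RPKM). Cxcl1 came eighth, at 5.17 RPKM, overlapping Tnfaip3. With Tubastatin A, Relb (25.5 RPKM) came second after Nfkbia (146.2 RPKM), Bcl3 overlapped Icam1, and Cxcl1, Ccl7, Ccl2 and Birc3 lay between 5.90 and 4.96 RPKM, where neighbours overlapped.

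Within groups, the spread was widest in fresh libraries, with a median coefficient of variation of 24.5% over the 10 genes, against 13.0% in vehicle and 9.9% with Tubastatin A. Fresh replicate 2 was highest in 6 genes, Cxcl1, Ccl2, Ccl7, Il6, Icam1 and Nfkbia, by up to 2.42-fold over the lowest library in Ccl7. Fresh replicate 1 was highest in Tnfaip3, Bcl3 and Birc3, and replicate 3 in Relb. In vehicle, replicate 3 was highest in 7 of the 10 genes. Leaving out any single library kept all 10 genes lower in both comparisons with fresh cells.

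The genes include 2 pairs of neighbours on a chromosome. Ccl2 (chr11:82035571-82037453, + strand) and Ccl7 (chr11:82045712-82047525, + strand) lie 8.3 kb apart in GENCODE M21 on GRCm38. The ratio of Ccl2 to Ccl7 lay between 0.754 and 1.14 in all 10 libraries, so that both moved in step across the groups. Bcl3 (chr7:19808462-19822770, - strand) and Relb (chr7:19606217-19629438, - strand) lie 179.0 kb apart. Their ratio did not hold: Bcl3 over Relb was 2.33 to 3.66 in fresh, 1.44 to 1.56 in vehicle and 0.374 to 0.479 with Tubastatin A. The other 6 genes lie at chr5:90891241-90893115 (Cxcl1), chr5:30013114-30019981 (Il6), chr9:21015985-21028817 (Icam1), chr9:7848699-7873186 (Birc3), chr12:55489410-55492647 (Nfkbia) and chr10:19000910-19015657 (Tnfaip3).

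Beyond the 10 genes, 7 lists of other NF-kB pathway genes held 113 measured genes of 151. In vehicle against fresh, 74 were lower, 15 higher and 24 not called, where 35.0% of all genes were lower and 32.0% higher. In Tubastatin A against vehicle, 22 were lower, 41 higher and 50 not called, where 29.7% of all genes were lower and 29.6% higher. In either direction, 67.0% of all genes were called in the first comparison and 59.3% in the second. These shares over all genes are the ones to set beside the counts of each list below, where most are not repeated. The first split moved to 62 lower and 30 higher when libraries were scaled to equal sums, and the second to 22 lower and 45 higher. The lists are taken in turn, ligands first, with levels given as the range over libraries.

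Of 15 other chemokines, 11 were lower and 3 higher in vehicle than in fresh, with a median difference of -2.49, and with Tubastatin A 4 were higher and 3 lower than in vehicle. Cxcl2, a neutrophil chemokine like Cxcl1, stood at 37.4, 108.9 and 47.6 RPKM in fresh, at 0.242 to 0.395 in vehicle and at 0.302 to 0.95 RPKM with Tubastatin A (-5.50 against fresh, adjusted p = 2.5e-08; 0.22 against vehicle, adjusted p = 0.53). Ccl19 and Ccl11, a lymphocyte and an eosinophil chemokine, likewise fell in vehicle, by 4.96 and 4.61 on the log2 scale (adjusted p = 9.2e-11 and 2.7e-09), and were not called between cultures (adjusted p = 0.80 and 0.76). Other chemokines differed between the cultures. Ccl5, which attracts T cells and monocytes, stood at 14.7, 19.8, 19.0 and 16.6 RPKM with Tubastatin A against 0.195, 0.413 and 1.14 in vehicle and 0.556 to 1.09 RPKM in fresh (3.58 against vehicle, adjusted p = 3.6e-08). Cxcl10, an interferon-induced chemokine, stood at 30.0 to 45.1 RPKM in fresh, 0.213 to 0.456 in vehicle and 3.18 to 4.58 RPKM with the inhibitor (1.89 against vehicle, adjusted p = 1.3e-06). Cxcl12, the ligand of CXCR4, went the other way: 8.26 to 15.4 RPKM in fresh, 21.7 to 27.7 in vehicle and 1.86 to 2.43 RPKM with Tubastatin A (-3.04 against vehicle, adjusted p = 1.0e-07). Ccl17, a ligand of CCR4, rose in vehicle to 1.91 to 2.63 RPKM and stood at 0.0156 to 0.157 RPKM with the inhibitor (-1.58, adjusted p = 7.9e-08).

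Of 9 other cytokines, 7 were lower and 1 higher in vehicle than in fresh. The 1 higher was Csf1, the macrophage colony-stimulating factor, at 210.0 to 307.2 RPKM in vehicle against 34.3 to 64.5 in fresh (2.45, adjusted p = 1.2e-06) and 119.7 to 157.1 RPKM with Tubastatin A (-0.87 against vehicle, adjusted p = 0.0034). Lif, a cytokine of the interleukin 6 family, fell in vehicle by 1.55 (adjusted p = 7.5e-07). Il11, of the same family, stood at 5.62 to 10.5 RPKM with the inhibitor, 0.0701 to 0.337 in vehicle and 0.342 to 2.6 RPKM in fresh (2.86 against vehicle, adjusted p = 7.4e-06).

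Of 14 receptors, 10 were lower and 1 higher in vehicle than in fresh, and with Tubastatin A 10 were higher and 2 lower than in vehicle, with a median difference of 0.75, where 29.6% of all genes were higher. Tlr2, a Toll-like receptor of bacterial lipoproteins, stood at 6.24 to 6.51 RPKM in fresh, 0.217 to 0.622 in vehicle and 5.74 to 8.42 RPKM with the inhibitor. With the inhibitor it differed by 2.55 from vehicle (adjusted p = 4.6e-08) and by 0.15 from fresh (adjusted p = 0.38). With libraries scaled to equal sums, the difference from fresh became 0.77 (adjusted p = 3.8e-04). Cd40, a receptor of the tumour necrosis factor family that acts through NF-kB, stood at 4.00 to 5.02 RPKM with the inhibitor, above vehicle at 0.0206 to 0.0524 and fresh at 0.0895 to 0.369 RPKM (2.44 against vehicle, adjusted p = 5.8e-09). Tnfrsf1a, the main receptor of tumour necrosis factor, fell from 140.1 to 273.6 RPKM in fresh to 22.2 to 30.1 in vehicle, and stood at 48.3 to 51.2 RPKM with Tubastatin A (0.96 against vehicle, adjusted p = 0.001). Of the receptors of the 10 genes' own products, Il6ra and Il6st were measured, and Il6ra, the ligand-binding chain, stood at 0.997 to 1.29 RPKM with the inhibitor against 0.0972 to 0.199 in vehicle (0.87, adjusted p = 6.4e-05). Il6st, the signalling chain gp130, stood at 41.6 to 85.6 RPKM in fresh, 12.9 to 21.3 in vehicle and 20.1 to 29.9 RPKM with the inhibitor. Its libraries overlapped between cultures, and it was counted higher with a difference of 0.61 (95% interval 0.07 to 1.14) just under the threshold (adjusted p = 0.05 as rounded), a call lost in 7 alternative settings.

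Of 28 adaptors and kinases, 13 were lower and 4 higher in vehicle than in fresh, a split that became 7 lower and 13 higher with libraries scaled to equal sums. Between cultures, 10 were higher and 5 lower with Tubastatin A. Myd88, the adaptor of Toll-like and interleukin 1 receptors, fell from 180.3 to 225.1 RPKM in fresh to 21.6 to 22.6 in vehicle, and stood at 19.8 to 24.6 RPKM with Tubastatin A (-0.05 against vehicle, adjusted p = 0.71). Traf1, an adaptor that is itself a known NF-kB target, ran against the 10 genes in vehicle against fresh. It rose from 0.0375 to 0.226 RPKM in fresh to 4.14 to 5.17 in vehicle (2.33, adjusted p = 2.8e-09). With the inhibitor Traf1 stood at 0.105 to 0.216 RPKM, lower than in vehicle (-2.29, adjusted p = 4.7e-09), as were 5 of the 10 genes. Irak3, an inhibitory member of the interleukin 1 receptor kinases, stood at 4.65 to 8.47 RPKM in fresh, 0.486 to 0.964 in vehicle and 5.53 to 7.34 RPKM with Tubastatin A (2.14 against vehicle, adjusted p = 1.4e-06).

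The 4 NF-kB subunits beside Relb showed no call between vehicle and Tubastatin A: 0 of 4 had an adjusted p under 0.05, and 0 of 4 an unadjusted one, in the limma fit as well as in limma's voom on recovered reads. Rela, the p65 subunit, stood at 474.2, 559.4 and 672.0 RPKM in fresh, 71.7 to 82.2 in vehicle and 78.1 to 88.9 RPKM with the inhibitor (-2.85 in vehicle against fresh, adjusted p = 9.9e-09). Rel fell by 1.59 (adjusted p = 6.4e-08) and Nfkb1 by 1.71 (adjusted p = 1.7e-04) in the same comparison. Nfkb2, the p52 precursor, stood at 74.9 to 82.5 RPKM in vehicle and 82.6 to 109.9 RPKM in fresh (-0.27, adjusted p = 0.087), and changed sign with libraries scaled to equal sums (0.33).

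Of 18 other inhibitors and feedback regulators, 12 were lower and 3 higher in vehicle than in fresh, and 8 were higher and 4 lower with Tubastatin A than in vehicle. Zfp36, which encodes tristetraprolin, a protein that destabilizes cytokine mRNAs, fell from 1112 to 2090 RPKM in fresh to 11.1 to 13.6 in vehicle, and stood at 34.2 to 43.6 RPKM with Tubastatin A (-6.81 and 1.58, adjusted p = 1.7e-10 and 2.2e-05). Nfkbiz, an IkB protein that acts in the nucleus like Bcl3, fell by 5.39 (adjusted p = 3.9e-09) and was not called between cultures, at 0.842 to 1.52 and 1.58 to 2.46 RPKM. Nfkbie, the inhibitor IkB-epsilon, stood at 19.6 to 21.3 RPKM in vehicle and 9.11 to 10.4 RPKM with the inhibitor (-1.0, adjusted p = 5.1e-05). Tax1bp1 and Tnip2, partners of A20, rose by 1.79 and 1.18 (adjusted p = 1.7e-06 and 2.2e-05) with Tubastatin A, while Tnfaip3, which encodes A20, fell.

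Of 25 other target genes, 18 were lower and 3 higher in vehicle than in fresh, and with Tubastatin A 7 were higher and 5 lower than in vehicle. Between cultures 29.6% of all genes were higher and 29.7% lower, so the counts of this list there do not stand out. Ier3, an early response gene, stood at 139.8, 219.6 and 146.4 RPKM in fresh, 4.46 to 7.44 in vehicle and 117.5 to 144.2 RPKM with the inhibitor. With the inhibitor it differed by 4.26 from vehicle (adjusted p = 5.8e-09) and by -0.37 from fresh (adjusted p = 0.09). Without fresh replicate 1, Ier3 was called lower than fresh (-0.49, adjusted p = 0.042). Vcam1, an adhesion molecule like Icam1 and the marker by which all cells were sorted, went the other way between cultures: 167.1 to 194.4 RPKM in fresh, 31.6 to 36.0 in vehicle and 3.78 to 4.70 RPKM with Tubastatin A (-2.71 against vehicle, adjusted p = 3.1e-09). Psmb10, a subunit of the immunoproteasome, fell with the inhibitor from 20.3 to 25.96 RPKM to 3.96 to 4.80 RPKM (-2.11, adjusted p = 9.3e-07). Cd83, an activation marker of immune cells, stood at 10.7 to 16.2 RPKM in fresh, 0.284 to 0.382 in vehicle and 1.64 to 2.30 RPKM with Tubastatin A. With the inhibitor it was higher than in vehicle (1.18, adjusted p = 2.4e-05) and lower than in fresh (-2.27, adjusted p = 7.7e-08).

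**Figure D3:**
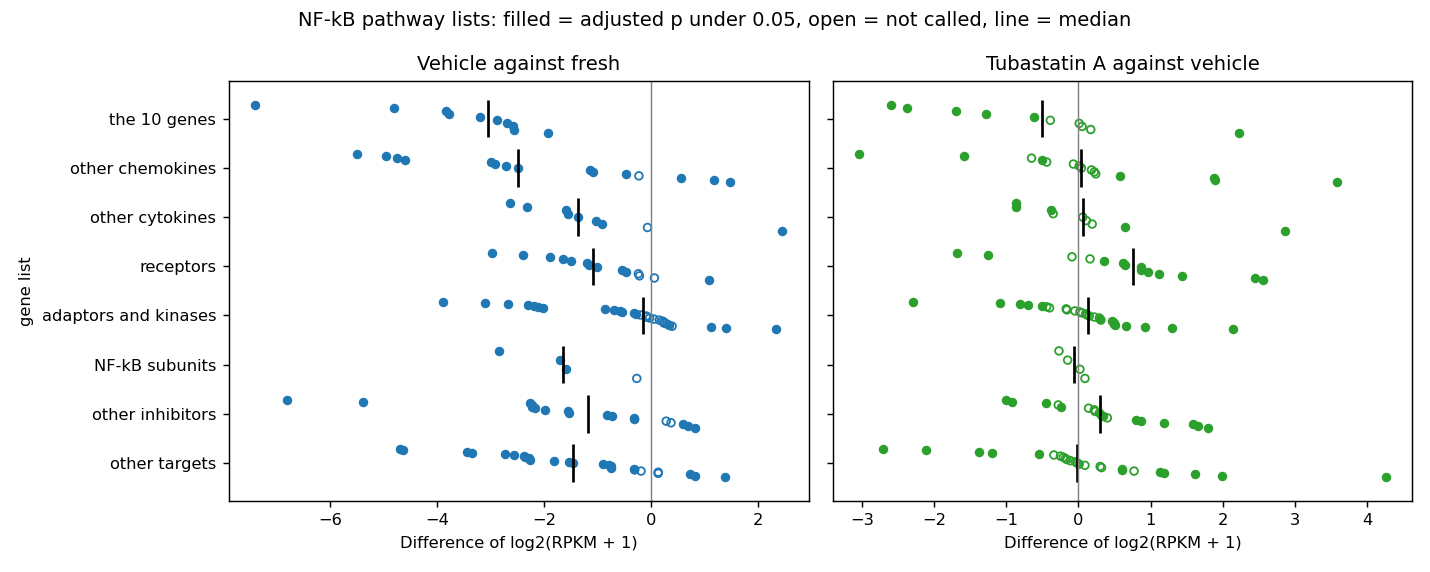
Differences of log2(RPKM + 1) for the 10 genes and the 7 pathway lists, 1 point per gene, in vehicle against fresh (left) and Tubastatin A against vehicle (right), filled where the adjusted p is under 0.05, with a line at each list's median. The 10 genes have medians of -3.05 and -0.50, and receptors a median of 0.75 on the right.

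**Figure D4:**
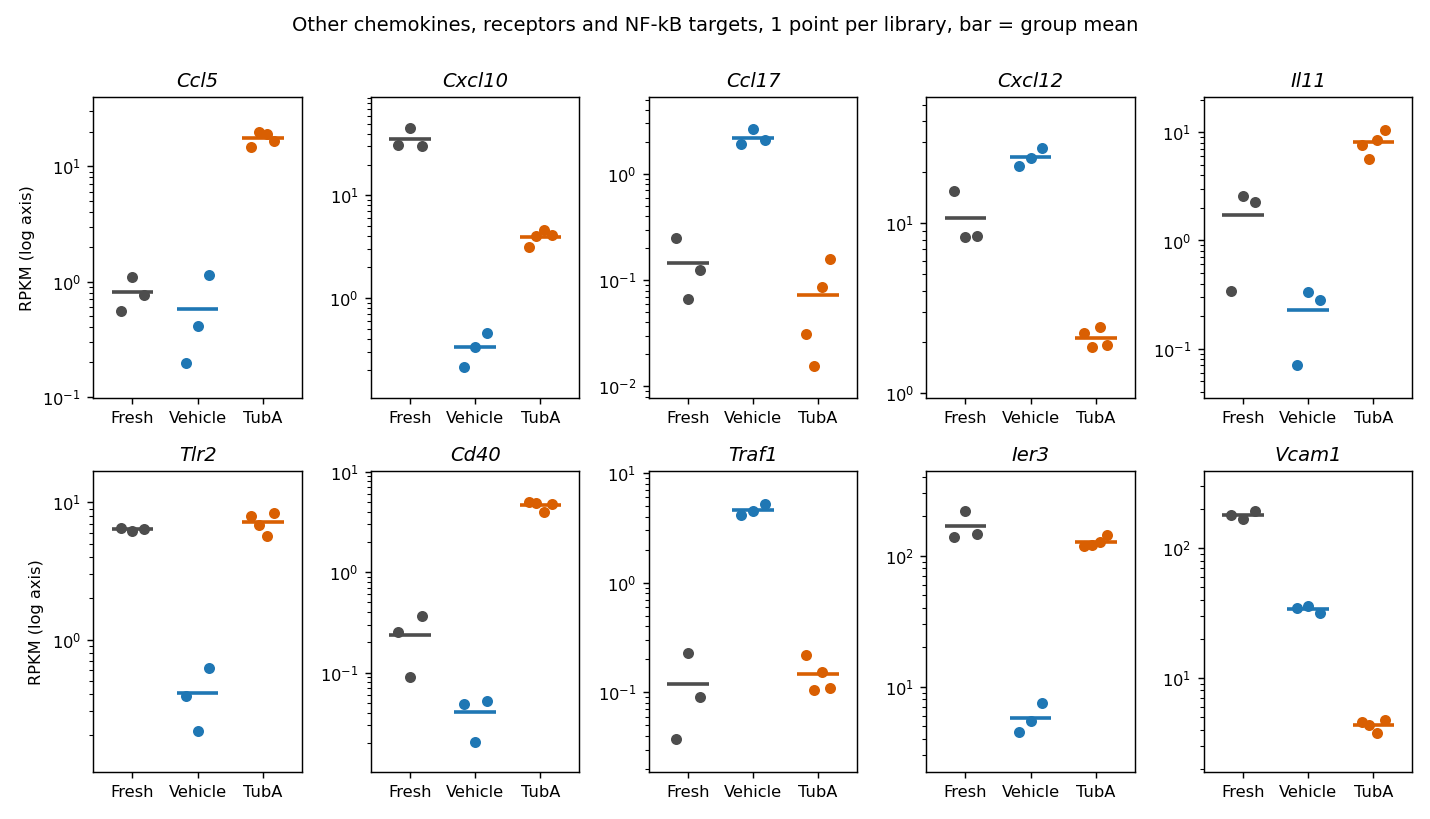
Levels of 10 other genes of the pathway in each library, in RPKM on a log axis, with 1 point per library and a bar at the group mean, for fresh, vehicle and Tubastatin A (TubA) libraries. Ccl5, Il11 and Cd40 are highest with TubA, Ccl17, Cxcl12 and Traf1 highest in vehicle, and Tlr2 and Ier3 lie near fresh levels with TubA and lower in vehicle.

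AP-1 is another family of factors induced early by stress, and was compared because its genes also fell in culture. All 8 of its genes, 7 subunits and Atf3, were lower in vehicle than in fresh (median difference -5.0), as were all 10 genes here. The AP-1 count was 7 of 8 with libraries scaled to equal sums and in the fit of only the groups compared. It was also 7 of 8 when any 1 of several libraries was left out, among them each vehicle library. With Tubastatin A, 4 of the 8 were higher and 1 lower than in vehicle (median 0.43), against 1 higher and 5 lower of the 10. No test of the difference between both groups of genes was made. The 5 genes outside the lists with the closest pattern to the mean of the 10 over all libraries were Rhoj, Nrep, Lhfp, Lsp1 and Pde4b, with Pearson r between 0.9956 and 0.9966. These values describe 10 libraries in 3 groups that lie apart. Rhoj fell from 154.4 RPKM in fresh to 8.71 in vehicle and 4.71 with the inhibitor, and Pde4b from 370.9 to 12.7 and 9.36 RPKM, as group means.

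Markers of the sorted cells were present in all libraries. The 10 muscle stem cell markers summed to 2666 to 3770 RPKM in fresh, 1800 to 2123 in vehicle and 900.5 to 1008 RPKM with Tubastatin A. Much of the sums in culture was Myod1, at means of 756.9, 1186 and 539.2 RPKM in that order, not called against fresh. Pax7 had means of 22.4, 4.73 and 2.14 RPKM, and Myf5 of 248.4, 34.05 and 6.37 RPKM. Of the 10, 8 were lower and 0 higher in vehicle than in fresh. With Tubastatin A, 8 were lower and 1 higher than in vehicle. Summed markers of other cells differed between groups too, most of them against fresh cells and some between cultures. Of 12 immune markers 4 were in the table, with sums of 6.39 to 11.03 RPKM in fresh, 0.735 to 0.967 in vehicle and 2.61 to 4.14 with the inhibitor. Lyz2, of myeloid cells, stood at means of 4.17 RPKM in fresh, 0.0144 in vehicle and 0.107 RPKM with Tubastatin A, and Cd68, of macrophages, at 2.07, 0.759 and 2.96 RPKM, most of the sum in both cultures. Between cultures only Cd68 of these 4 was called. The 9 endothelial markers summed to 37.8 to 48.3, 3.25 to 4.19 and 5.93 to 6.73 RPKM, with Tek at means of 17.96, 0.879 and 4.21 RPKM. Between cultures Tek was higher, Egfl7 lower and the other 7 not called. For fibro-adipogenic progenitors, 8 of 10 markers summed to 273.3 to 697.3, 34.9 to 44.2 and 7.63 to 14.5 RPKM. Pdgfra, their defining receptor, stood at means of 0.117, 0.00675 and 0.0585 RPKM. Col3a1 made up most of the sums of these 8, at means of 407.4, 38.0 and 6.50 RPKM. Between cultures Col3a1 was lower, Col1a1 higher and the other 6 not called. The 8 markers of pericytes and smooth muscle cells summed to 239.2 to 292.4, 176.8 to 241.1 and 12.3 to 63.5 RPKM, mostly Acta2 (means 211.8, 211.9 and 23.0 RPKM). All but Acta2, 7 of the 8, were lower in vehicle than in fresh. The 6 of tenocytes summed to 44.6 to 66.5, 66.5 to 78.1 and 5.53 to 12.5 RPKM. Of these 6, 5 were lower in vehicle than in fresh. Only Scx was higher, at means of 10.0, 70.5 and 4.14 RPKM, so that the sum was not lower. Between cultures Scx was lower, 2 of the 6 higher and 3 not called. The part of these other cells in the fall of the 10 genes from fresh levels and in the differences between cultures was not tested. Tubastatin A replicate 2 stood apart with 382.9 RPKM of 7 myofibre markers against 5.19 to 6.13 in the other 3, and without it the counts were again 1 higher and 5 lower of the 10 against vehicle.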

How the data were processed

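RNA of 10 libraries, each from 1 animal, was made into cDNA from 5 ng RNA and sequenced as pairs of 150 bp, per the labels' protocols. The submitters' processing notes name the tools Trim Galore, STAR, Subread with featureCounts, and edgeR, and as build mm10, with no version or setting. The authors deposited 1 table of 12803 genes, read here as RPKM from its values, since neither header nor labels name the unit. With GENCODE M21 gene lengths, whole reads (within 0.05 reads) were recovered for 12461 genes (97.3%), and 2456 values stood at a floor in place of 0.

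log2(RPKM + 1) was fitted for all genes in the 3 groups with limma 3.58.1 (R 4.3.3) with a variance trend, and p-values were adjusted over all genes by Benjamini-Hochberg; the fit was tested on simulated data. Use of strand is not given in the sources used here, so reads of overlapping genes may not be separable. Tables and figures were made with Python 3.11.15. The 10 genes and all gene lists were chosen with earlier results of these data known. Named were the 10 genes, up to 3 genes per list and comparison with the lowest adjusted p among those called, all subunits, Il6ra and Il6st, markers of other cells, and the 5 genes with the closest pattern.

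Alternatives were pseudocounts of 0.1 and 5 RPKM, a filter on low levels, other scalings, fits of only 2 groups, voom on recovered reads, a replicate block, a 2-fold limit and each library left out; scaling by reads in the table was added after seeing the data.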

Additional observations from a re-analysis of the deposited data

Results flagged for a closer look

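The Tubastatin A libraries held 1 library far from the other 3 in 2 summed marker lists. Replicate 2 summed to 382.9 RPKM over the markers of mature myofibres and to 63.5 RPKM over those of pericytes and smooth muscle cells, against 5.19 to 6.13 and 12.3 to 13.3 RPKM in the others. None of the 10 genes had such a library in that group, and chance flags about 1 group in 20.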

How the results depend on the processing

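Across 19 alternatives and 3 comparisons, 567 differences of the 10 genes kept their side of the threshold, and the called ones their direction. Uncalled differences could change sign within that count. Another 2 passed the threshold newly (Nfkbia between cultures, in the fit of only 2 groups and without fresh replicate 2). Only 1 lost it (Tnfaip3 between cultures with a pseudocount of 5). None changed direction in a called result. Scaling set the counts over many genes: relative to the deposited RPKM, libraries scaled to equal sums moved log2 RPKM of every gene by 0.602 in vehicle against fresh, 0.121 between cultures and 0.724 in Tubastatin A against fresh, and scaling by reads in the table by 0.606, 0.081 and 0.687. Genes called higher then numbered 6280 and 6350 in place of 4096 in vehicle against fresh, and 7006 and 6903 in place of 3811 in Tubastatin A against fresh. All 10 genes stayed lower than fresh in both. The pathway genes called higher went from 15 to 30 under both scalings in vehicle against fresh, and from 21 to 39 and 38 in Tubastatin A against fresh. Under these scalings, in that order, Nfkb2 turned to 0.33 and 0.33 in vehicle against fresh. In Tubastatin A against fresh, Nfkb2 turned to 0.30 and 0.26, Cd14 to 0.55 and 0.51 and Irak3 to 0.57 and 0.53. Tlr2 and Tax1bp1, not called there in the deposited RPKM, were called above fresh, at 0.77 and 0.74 and at 0.96 and 0.92.

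With a 2-fold limit added to the adjusted p, 3916, 2402 and 3062 of all genes were called in vehicle against fresh, between cultures and in Tubastatin A against fresh. Birc3 between cultures then lost its call, leaving 4 of the 10 genes lower. In that setting 8, 19 and 10 pathway genes were higher, 10 were lower between cultures, and 1 AP-1 gene was higher and 0 lower between cultures. The AP-1 genes lower between cultures numbered 0 with a pseudocount of 5 and 2 in the fit of only the 2 groups.

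The replicate numbers were not taken as pairs: the correlations of same-numbered libraries ranged from -0.192 to 0.387. With a replicate block, 8503, 7136 and 7888 of all genes were called, and the 10 genes again gave 10 lower, 1 higher with 5 lower, and 10 lower. With few reads in culture, Il6 levels there rest on 2 to 18 reads a library.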
